A study of Mus musculus with 2 samples.

Results

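Acute phase proteins are secreted plasma proteins whose production changes in inflammation. The liver is their main source, where interleukin-6, interleukin-1 and glucocorticoids drive their genes through STAT3, NF-κB, C/EBP factors and the glucocorticoid receptor. Adipose tissue is also known to make several of them. The 8 genes Hp, Hpx, Lcn2, Orm1, Orm2, Saa3, Cp and Serpina3n were followed here among 23361 genes with values in a deposited RNA-Seq table. They were chosen by symbol as acute phase genes, with the increase of Hp at D7 already known. The difference between D7 and D0 was therefore part of the choice, and it is given below as a description without a test.

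RNA-Seq was performed in brown preadipocytes (D0) and in differentiated brown adipocytes (D7), each stage being represented by 1 library. Both cultures came from interscapular brown adipose tissue of newborn C57BL/6 mice (C57BL/6J in the paper's methods) and were kept in medium with insulin at 0.1 μM and the thyroid hormone T3 at 1 nM. Inducing agents were added from day 0 for 2 days, namely 0.125 mM indomethacin, 0.5 mM IBMX and dexamethasone, a glucocorticoid, at 2 μg/ml, and cells were collected at day 7. Exposure to these agents and the stage of the cells cannot be told apart in this design. The paper's methods give other concentrations of insulin and dexamethasone and describe immortalization with large T antigen, whereas the labels call the cells primary cultures. Those methods name insulin and T3 for the differentiation medium only, whereas the labels give both at D0 too. By the paper's account, exposure to insulin and T3 would therefore also differ between the stages. Several newborn mice of either sex were used, and how they were divided between cultures is not stated.

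Values were FPKM, which divides the fragments of a gene by its length and by the reads of the library, so that genes can be compared by level. A gene was called higher or lower at a D7 to D0 ratio of at least 2.0-fold, the threshold in the paper's methods. From genes with a single exon, 21471438 fragments were estimated to stand behind the scale of the D0 library and 18265208 behind that of the D7 library. The paper's numbers of mapped reads are larger and differ less between the libraries, and the reason was not examined. For genes with several exons the numbers of fragments are approximate. A fold is D7 divided by D0, and the range in brackets after a fold or a level is its exact 95% interval. Only counting error enters these intervals, since no replicate gives the spread between cultures. Of 72 ribosomal protein genes, 0 were listed at 0 in a library.

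The labelled stages were checked by marker genes. All 10 adipocyte markers were higher at D7, beside 18.5% of all genes above 0 in both libraries. Among them was Adipoq, which encodes the hormone adiponectin and went from 0.221 FPKM in preadipocytes to 943 in adipocytes. Of 9 preadipocyte markers with values, 4 (44.4%) were lower, beside 13.2% of all genes above 0 in both libraries. They included the collagen gene Col1a1, which went from 1899.9 FPKM to 601. Another 4, Pdgfra, Ly6a, Col3a1 and Dpp4, were within 2.0-fold. Cd34 of the same list was higher, going from 1.85 FPKM to 15.4. In such bulk samples, fewer cells of a type and less RNA per cell cannot be told apart.

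Upstream sequences of 4 of the genes are shown. They held short letter patterns known for factors of the acute phase response and could be printed without annotated exon bases. RefSeq windows (GRCm38.p6, the assembly of mm10) from 250 bases before to 50 after a start site were found for 6 of the 8 genes, namely Hpx, Lcn2, Orm2, Saa3, Cp and Serpina3n. Hp and Orm1 were not among the genes of that table. The patterns searched on both strands were TTGCNNAA for C/EBP factors, TTCNNNGAA for STAT factors, ACANNNTGT for the glucocorticoid receptor and, for NF-κB, GGGA and CC with any 4 bases between them. Sequences run 5′ to 3′ on the strand of the gene and end before the first annotated exon base. The Lcn2 window and the Cp window with matches are not shown, because annotated exons of these genes overlap their upstream bases. Capitals mark the letters that match any of the patterns.
Orm2 at chr4:63362199-63362448, plus strand: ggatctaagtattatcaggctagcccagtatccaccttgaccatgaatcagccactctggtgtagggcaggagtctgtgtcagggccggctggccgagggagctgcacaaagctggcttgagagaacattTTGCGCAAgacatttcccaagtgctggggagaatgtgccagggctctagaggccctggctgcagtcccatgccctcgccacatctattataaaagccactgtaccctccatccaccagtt
Saa3 at chr7:46715701-46715926, minus strand: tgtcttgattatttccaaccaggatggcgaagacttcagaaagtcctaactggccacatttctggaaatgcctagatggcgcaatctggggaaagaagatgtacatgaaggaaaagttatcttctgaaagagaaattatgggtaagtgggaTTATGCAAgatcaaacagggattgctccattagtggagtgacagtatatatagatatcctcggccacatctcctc
Hpx at chr7:105600138-105600366, minus strand: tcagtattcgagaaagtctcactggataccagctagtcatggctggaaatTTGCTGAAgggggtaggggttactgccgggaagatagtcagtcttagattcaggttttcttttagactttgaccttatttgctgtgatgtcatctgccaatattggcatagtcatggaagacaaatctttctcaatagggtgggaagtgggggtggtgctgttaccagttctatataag
Serpina3n at chr12:104406458-104406707, plus strand: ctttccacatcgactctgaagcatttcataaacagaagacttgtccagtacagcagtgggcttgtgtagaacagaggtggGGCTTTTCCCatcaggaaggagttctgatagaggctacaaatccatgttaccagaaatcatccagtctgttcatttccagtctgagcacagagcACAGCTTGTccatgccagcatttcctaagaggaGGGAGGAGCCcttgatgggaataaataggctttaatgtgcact

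The C/EBP letters occurred in windows of 5 of the 6 genes, Serpina3n being the exception. In Orm2 they were TTGCGCAA, beginning at -120 from the start and reading the same on both strands. In Saa3 they were TTATGCAA at -99, and in Hpx TTGCTGAA at -200. The remaining matches were TTGCTCAA in Lcn2 at -216 and TTTTGCAA in Cp at -70. Cp has 2 windows, and the match was in 1 of them. The other Cp window held 0 matches to any of the patterns and is not shown. Over all 32851 windows of the table, 10.8% held the C/EBP letters. The letters for the glucocorticoid receptor were found in Lcn2 and Serpina3n and in 6.85% of all windows, and those for NF-κB in Cp and Serpina3n and in 20.7%. The STAT letters were in 0 of the windows of the 6 genes and in 8.30% of all windows. Such matches describe letters in a window and do not show that a factor binds there.

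All 8 genes had a higher value at D7. FPKM was above 0 in both libraries for 6 of them, and all 6 were called higher. Over the table, 14986 genes were above 0 in both libraries, and 18.5% of them were called higher. All 6 were also at least 4.0-fold higher, as were 8.08% of the 14986. The median log2 ratio was 4.79 for the 6 genes and 0.015 for the 14986. Orm1 and Orm2 were listed at 0 at D0 and passed an FPKM of 1 at D7, which 0.334% of the 23361 genes did. Since the genes were chosen with this contrast known, nothing is read from these shares.

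Summed over the 8 genes, FPKM amounted to 23.8 at D0 and 4086 at D7. This was 0.00464% of the FPKM of all genes in preadipocytes and 0.782% in adipocytes. Hp alone held 76.3% of the sum at D7.

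**Figure D1:**
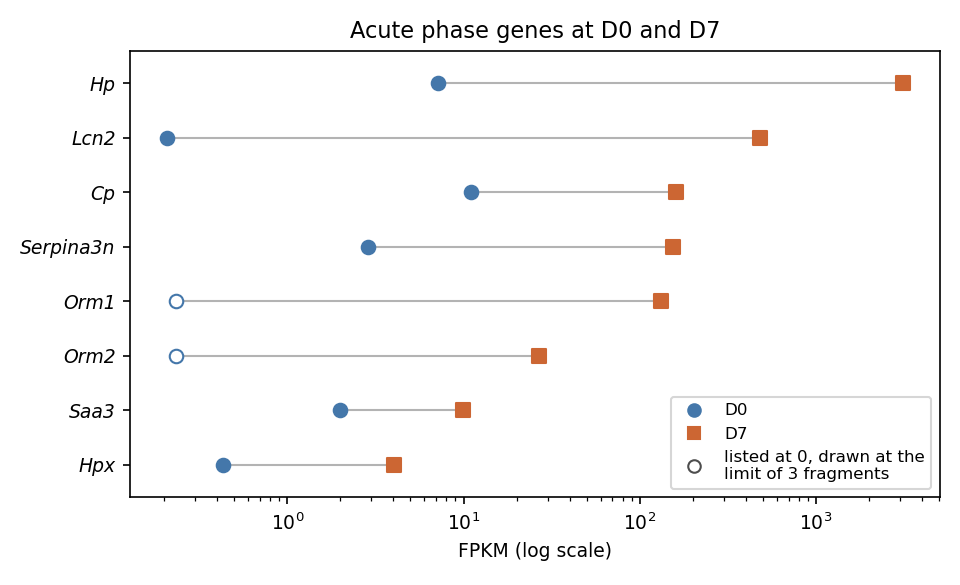
FPKM (log scale) of the 8 genes in the D0 library (circles) and the D7 library (squares). Open circles mark Orm1 and Orm2, listed at 0 at D0 and drawn at the limit of 3 fragments, an FPKM of 0.234. Every square lies to the right of its circle.

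Of the chosen genes whose proteins handle hemoglobin, heme, iron or copper, Hp had the highest level at D7 and Cp at D0. Hp (ENSMUSG00000031722.10, chromosome 8 of mm10, 109575128 to 109579172, minus strand) encodes haptoglobin, which binds free hemoglobin. It had 7.19 FPKM in preadipocytes (about 180 fragments) and 3115 in adipocytes (about 66181 fragments), or 433-fold (374 to 504). This ratio was number 31 in order among the 14986 genes. By level, Hp was number 7123 of the table at D0 and number 8 at D7. Duplicate reads had been removed by the authors, which may lower the values of transcripts this abundant, and the size of that effect was not tested.

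Hpx (ENSMUSG00000030895.9, chromosome 7, 105591613 to 105600137, minus strand) encodes hemopexin, which binds heme. It had the lowest level of the 8 genes at D7. Preadipocytes showed 0.430 FPKM from about 12 fragments, and adipocytes 4.05 from about 97. The ratio was 9.43-fold (5.21 to 19.1), and adding 1 to each FPKM lowered its log2 value from 3.24 to 1.82.

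Lcn2 (ENSMUSG00000026822.14, chromosome 2, 32384633 to 32388252, minus strand) encodes lipocalin 2, which binds the iron-carrying siderophores of bacteria. Its level was 0.207 FPKM in preadipocytes, where about 3 fragments were counted, and 484 in adipocytes, where about 6475 were. The level at D0 was thus close to the limit of detection. The ratio was 2333-fold (871 to 12357), number 12 in order among the 14986 genes. Its log2 value of 11.19 became 8.65 when 1 was added to each FPKM.

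Cp (ENSMUSG00000003617.16, chromosome 3, 19957054 to 20009145, plus strand) encodes ceruloplasmin, a copper protein that oxidizes iron. It had the highest level of the 8 genes at D0. Its FPKM of 11.1 in preadipocytes became 160.4 in adipocytes, or 14.5-fold (13.5 to 15.5), on about 916 and 11271 fragments. The locus that the table gives for Cp also covers Hps3, a gene on the opposite strand. The Cp transcript used here shares 0 exonic bases with Hps3, and all annotated Cp transcripts together share 108. Hps3 itself differed 1.39-fold (1.22 to 1.59) between D7 and D0.

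The other 4 genes encode carriers of small molecules and lipids and a protease inhibitor. Orm1 (ENSMUSG00000039196.2, chromosome 4, 63344560 to 63348163, plus strand) and Orm2 (ENSMUSG00000061540.3, chromosome 4, 63362449 to 63365878, plus strand) encode orosomucoids, which carry small molecules in plasma. Both were listed at 0 in preadipocytes, where 3 fragments would give 0.234 FPKM. Adipocytes showed 132 FPKM of Orm1 (125 to 139) from about 1428 fragments. For Orm2 the level was 26.8 FPKM (23.9 to 30.1) from about 291 fragments. No ratio was computed against the listed 0.

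Saa3 (ENSMUSG00000040026.8, chromosome 7, 46711998 to 46715700, minus strand) encodes a serum amyloid A, an apolipoprotein that in mice is made mostly outside the liver. It had 1.99 FPKM in preadipocytes and 9.89 in adipocytes, on about 16 and 67 fragments. The ratio of 4.98-fold (2.84 to 9.17) was the smallest of the 6. Serpina3n (ENSMUSG00000021091.8, chromosome 12, 104406729 to 104414329, plus strand) encodes a secreted inhibitor of serine proteases. Its level was 2.88 FPKM before and 153 after differentiation, or 53.2-fold (44.2 to 64.3), on about 117 and 5275 fragments.

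In order of FPKM at D7, the genes were Hp, Lcn2, Cp, Serpina3n, Orm1, Orm2, Saa3 and Hpx. Among neighbours in this order, the intervals of the level overlapped for Cp (157 to 163) and Serpina3n (149 to 158) only. At D0 the order was Cp, Hp, Serpina3n, Saa3, Hpx and Lcn2, followed by Orm1 and Orm2 at 0. There the intervals of Serpina3n (2.39 to 3.46) and Saa3 (1.13 to 3.22) overlapped, as did those of Hpx (0.219 to 0.740) and Lcn2 (0.0391 to 0.555). The interval of Lcn2 also overlapped that of Orm1 and Orm2, whose listed 0 allows up to 0.288 FPKM.

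**Figure D2:**
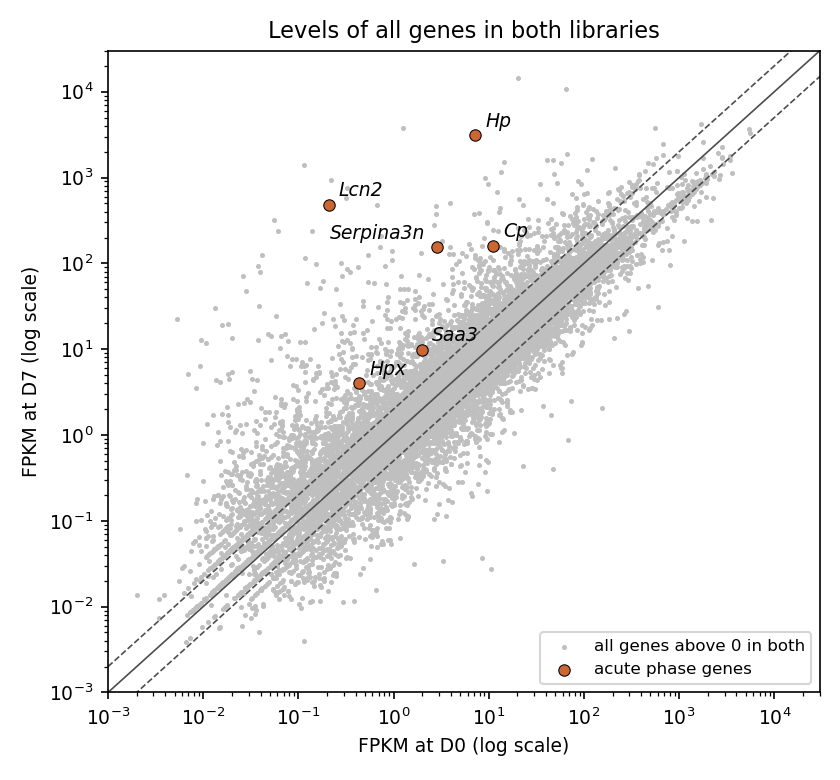
FPKM at D7 against FPKM at D0 (both log scales) for the genes above 0 in both libraries, with the 6 acute phase genes in orange. The solid line marks equal values and the dashed lines 2.0-fold, and 7 genes under an FPKM of 0.001 in a library fall outside the axes. All 6 lie above the upper dashed line, Hp highest and Lcn2 farthest from it.

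Genes with the most similar pair of levels were found by the distance between log2 FPKM at D0 and D7, which rests on 2 libraries. Those nearest to Hp were Agpat2, Cdo1, Pnpla2, Pcx and Glul, with ratios from 55.7 for Glul to 107 for Pnpla2, all below that of Hp. Agpat2, an enzyme of phospholipid and triglyceride synthesis, was the nearest, with 14.5 FPKM in preadipocytes and 1505 in adipocytes. The gene nearest to Lcn2 was Cfd, which encodes the complement protease adipsin and is also on the list of adipocyte markers, with 0.313 and 579 FPKM. Nearest to the others were Dgat1 for Cp, Car5b for Serpina3n, Foxo1 for Saa3 and Lilrb3 for Hpx. Dgat1, an enzyme of triglyceride synthesis, had 11.4 and 155 FPKM.

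Several of the genes have near copies in the genome, between which reads may have been shared. The likeness was measured over windows of 90 bases, the read length, with up to 5 mismatches, the number the authors allowed. Of the windows of the Orm1 transcript, 44.8% matched Orm2 in this way and 5.83% matched Orm3. How such reads were assigned is not stated, so that the split of FPKM between Orm1 and Orm2 is uncertain. Orm3, another orosomucoid, was also listed at 0 in preadipocytes and reached 12.6 FPKM in adipocytes. The 3 genes together had 171 FPKM at D7, of which Orm1 held 77.0%.

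Saa3 shared 9.66% of its windows with Saa1 and 0% with Saa2 and Saa4. Saa1 and Saa2 encode the serum amyloids that the liver makes in the acute phase. They were listed at 0 in preadipocytes, and in adipocytes Saa1 had 0.644 FPKM and Saa2 0.896, from about 5 and 7 fragments. Saa4, also listed at 0 in preadipocytes, had 0.118 FPKM in adipocytes. Among these 4 genes, Saa3 was the one with an FPKM of at least 1.

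Serpina3n lies in a cluster of copies, and 10 other Serpina3 genes had values. It shared at most 9.92% of its windows with any 1 of them, Serpina3m. Of the 4 above 0 in both libraries, 2 (50%) were higher at D7 and 1 (25%) was lower, beside 18.5% and 13.2% of all genes. Serpina3c was higher, with 0.185 FPKM in preadipocytes and 26.6 in adipocytes, or 144-fold (73.4 to 337). Serpina3h, the other one, rested on about 1 fragment at D0 and 4 at D7, with an interval from 0.467 to 232 that includes 1. Serpina3g was lower, with 4.00 FPKM before and 0.983 after differentiation, or 0.246-fold (0.159 to 0.369). Serpina3m and Serpina3k were listed at 0 in preadipocytes and reached 10.3 and 1.27 FPKM in adipocytes.

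Cp has 2 relatives that also oxidize iron, hephaestin (Heph) and its homolog Hephl1, and shared 0% of its windows with either. Heph was higher at D7, with 4.22 FPKM in preadipocytes and 14.6 in adipocytes, or 3.45-fold (3.05 to 3.91). Hephl1 had 0.00916 FPKM in preadipocytes, about 1 fragment, and 6.28 in adipocytes, about 583 fragments, or 686-fold (123 to 27131). In both libraries Cp had the highest FPKM of these 3 genes.

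**Figure D3:**
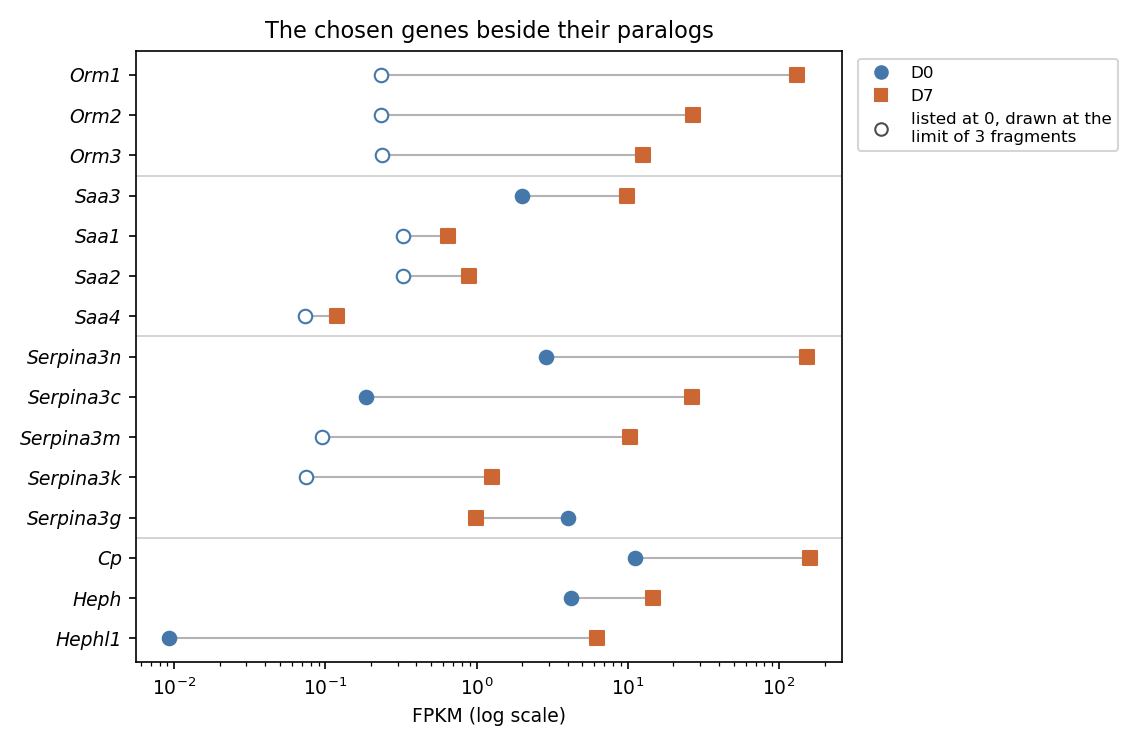
FPKM (log scale) at D0 (circles) and D7 (squares) of the Orm and Saa genes, of Serpina3n with 4 of its relatives, and of Cp with Heph and Hephl1. Open circles mark genes listed at 0 at D0 and drawn at the limit of 3 fragments. Serpina3g is the gene whose square lies to the left of its circle.

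A list of 25 other acute phase genes was examined beside the 8. Of these, 9 were above 0 in both libraries, beside 14986 of the 23361 genes of the table. Another 7 were listed at 0 at D0 alone and 9 at 0 in both, and nothing is read from these zeros. Of the 9 with a ratio, 5 or 55.6% were higher at D7 and 1 was lower, where 18.5% and 13.2% of all genes were. The median log2 ratio of the 9 was 1.24. The number of higher genes became 9 when 0.1 was added to each FPKM, since Orm3, Saa1, Saa2 and Saa4 then had a ratio. It was 3 at a threshold of 4.0-fold, which 8.08% of all genes above 0 in both libraries passed.

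The higher genes of the list were Itih4, Steap4, Lbp, Mt2 and Mt1. Steap4, a metalloreductase of membranes, had 0.346 FPKM in preadipocytes and 80.1 in adipocytes, or 231-fold (153 to 372). Itih4, an inter-alpha-trypsin inhibitor heavy chain, had 0.0157 FPKM in preadipocytes, about 1 fragment, and 19.0 in adipocytes, or 1212-fold (246 to 54187). Lbp, whose product binds bacterial lipopolysaccharide, went from 3.20 FPKM to 18.6, or 5.83-fold (4.92 to 6.95). The metallothioneins Mt1 and Mt2, which bind zinc and copper, differed 2.36-fold (2.23 to 2.49) and 3.05-fold (2.81 to 3.31). The lower gene was Il1rn, the antagonist of the interleukin-1 receptor, with 12.1 FPKM before and 3.49 after differentiation. Ptx3, a pentraxin, had 92.0 and 46.2 FPKM, and its ratio of 0.502-fold (0.472 to 0.534) did not reach the threshold. Among the genes listed at 0 in both libraries were the fibrinogen chains Fgb and Fgg and the 5 alpha-1-antitrypsin genes of the list.

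**Figure D4:**
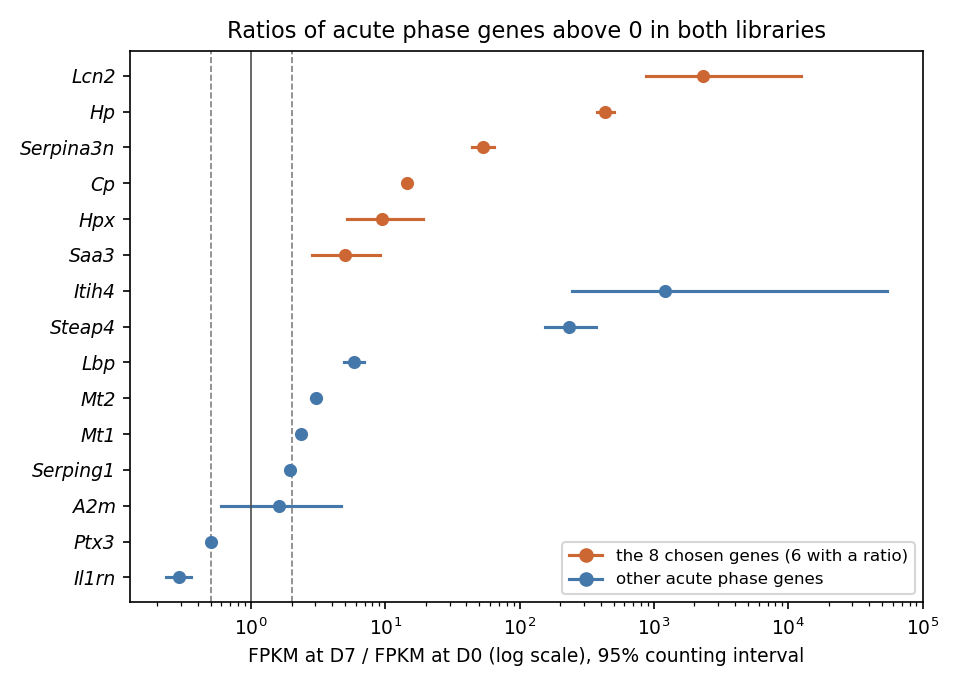
Ratio of FPKM at D7 to D0 (log scale) with its exact 95% counting interval, for the 6 chosen genes above 0 in both libraries (orange) and the 9 other acute phase genes (blue). The solid line marks equal values and the dashed lines 2.0-fold. The orange intervals all lie to the right of the upper dashed line, while the blue ones run from Il1rn, below the lower line, to Itih4.

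Genes known to act upstream of the acute phase genes were called higher or lower about as often as all genes. Of 30 cytokine, receptor, kinase and factor genes, 28 were above 0 in both libraries, and 19 of these were within the threshold. The 5 higher genes were 17.9% of the 28, beside 18.5% of all genes, and the 4 lower ones were 14.3%, beside 13.2%. The median log2 ratio of the list was -0.041. At a threshold of 4.0-fold, 2 of the 28 genes were higher, Cebpa and Tnf, beside 8.08% of all genes above 0 in both libraries.

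Il6, which encodes interleukin-6, had the lowest ratio of the list. It had 9.90 FPKM in preadipocytes and 0.484 in adipocytes, or 0.0489-fold (0.0197 to 0.0929). Socs3, a feedback inhibitor of that pathway that STAT3 induces, was lower, with 26.3 and 7.17 FPKM, or 0.273-fold (0.240 to 0.308). Stat3 itself had 87.3 and 51.4 FPKM, or 0.588-fold (0.569 to 0.608), which is within the threshold. The receptor gene Il6ra was higher, 2.65-fold (2.20 to 3.20), while Il6st, which encodes the shared signal subunit, differed 0.811-fold (0.791 to 0.830). The gene of a related receptor, Lifr, was higher as well, 2.85-fold (2.28 to 3.59), and its ligand gene Lif was lower, 0.487-fold (0.359 to 0.658).

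On the interleukin-1 and TNF side, Il1a and Il1b were listed at 0 in both libraries. Il1r1, the receptor of both cytokines, was lower, with 33.1 FPKM in preadipocytes and 16.1 in adipocytes. Tnf rested on about 2 fragments at D0 and 7 at D7, with an interval from 0.785 to 40.7 that includes 1. Of the genes of NF-κB subunits, Nfkb1 differed 0.981-fold (0.908 to 1.06) and Rela 0.744-fold (0.689 to 0.802). Nfkb2 differed 0.682-fold (0.615 to 0.756) and Relb 1.07-fold (0.899 to 1.27). Nfkbia, the inhibitor that NF-κB induces, was higher, 2.17-fold (1.90 to 2.49), while Nfkbiz of the same list differed 0.604-fold (0.529 to 0.692), within the threshold.

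The C/EBP genes differed from each other. Cebpa, a factor of adipocyte differentiation, went from 9.67 FPKM in preadipocytes to 305 in adipocytes, or 31.5-fold (28.9 to 34.5). Cebpb, known for its part in the acute phase response, had 47.5 and 30.9 FPKM, or 0.650-fold (0.593 to 0.711). Cebpd had 36.5 and 36.4 FPKM, and its interval from 0.944 to 1.05 includes 1. Nr3c1, which encodes the glucocorticoid receptor, differed 1.78-fold (1.66 to 1.90), below the threshold.

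Genes of receptors and partners of the 8 proteins moved in both directions. Of 14 genes listed, 12 were above 0 in both libraries, with 5 (41.7%) higher and 3 (25%) lower, beside 18.5% and 13.2% of all genes. The list also holds Heph and Hephl1, relatives of Cp rather than receptors or partners, and both were among the 5 higher genes. Cd163, the macrophage receptor of hemoglobin bound to haptoglobin, was higher, with 0.0110 FPKM in preadipocytes, about 1 fragment, and 1.33 in adipocytes, about 103 fragments. Lrp1, the receptor of heme bound to hemopexin, had 204 and 125 FPKM, or 0.612-fold (0.604 to 0.620), within the threshold. Hmox1, the enzyme that breaks heme down, was lower, 0.466-fold (0.447 to 0.485).

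Slc22a17, described as a receptor of lipocalin 2, differed 1.60-fold (1.31 to 1.95), and Lrp2, which takes up several lipocalins, was lower, 0.296-fold (0.209 to 0.410). Mmp9, the protease that lipocalin 2 binds, rested on about 17 and 3 fragments. The iron exporter Slc40a1, which works with ceruloplasmin, differed 1.25-fold (1.11 to 1.42). Tlr4 and Scarb1, which have serum amyloid A among their ligands, were higher, 2.54-fold (2.22 to 2.89) and 3.98-fold (3.69 to 4.29). Tlr2 of the same list differed 1.05-fold (0.780 to 1.41). Fpr2, also on it, was listed at 0 at D0 and had 0.197 FPKM at D7, from about 3 fragments.

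**Figure D5:**
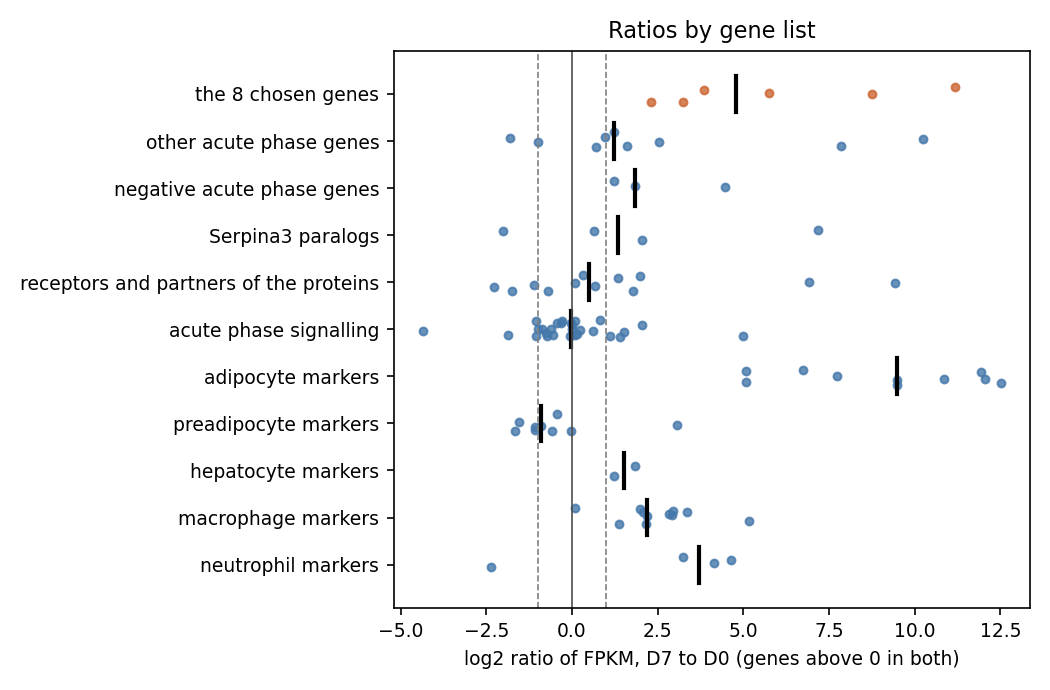
Log2 ratio of FPKM, D7 to D0, by gene list, with 1 point per gene above 0 in both libraries and the median of each list as a black bar. The solid line marks equal values and the dashed lines 2.0-fold. The median is 4.79 for the chosen genes, 1.24 for the other acute phase genes, -0.041 for acute phase signalling and 9.48 for adipocyte markers.

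Other cells that make these proteins were examined through their markers. Of 10 hepatocyte markers, 4 (Alb, Serpina1a, Fgb and Tat) were listed at 0 in both libraries, and the summed FPKM of the list was 0.0950 at D0 and 80.6 at D7. Most of the sum at D7 came from Cyp2e1, with 46.2 FPKM, and Apoc3, with 33.9. Neutrophils carry haptoglobin and lipocalin 2 in their granules. Of 9 neutrophil markers with values, 4 (S100a9, Elane, Ltf and Retnlg) were listed at 0 in both libraries, and the sum was 1.00 at D0 and 12.2 at D7. Over the table, 14986 of 23361 genes were above 0 in both libraries, and nothing is read from the zeros of either list. Of the 4 neutrophil markers above 0 in both libraries, 3 (75%) were higher and 1 (25%) was lower, beside 18.5% and 13.2% of all genes. The higher ones were Camp, S100a8 and Mpo, with 6.30, 5.47 and 0.347 FPKM at D7. The lower one, Cxcr2, rested on about 6 fragments at D0 and 1 at D7.

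Macrophage markers moved with the 8 genes. Of 11 with values, 10 (90.9%) were higher at D7, beside 18.5% of all genes. In this list 0 genes were listed at 0, and the summed FPKM was 156 at D0 and 584 at D7. The median log2 ratio of the list was 2.19. Lyz2, which encodes a lysozyme, had 111 FPKM in preadipocytes and 286 in adipocytes, and Mrc1, the mannose receptor, 0.589 and 21.1. Cd14 was the gene within the threshold, 1.06-fold (0.829 to 1.34). Of 6 endothelial markers, 2 (33.3%) were higher and 1 (16.7%) was lower, beside 18.5% and 13.2% of all genes, and their sum was 1.62 at D0 and 2.69 at D7. The part of macrophages or other cells in the levels of the 8 genes was not tested.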

How the data were processed

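RNA-Seq libraries of D0 and D7 were analysed from the table of FPKM values that the authors deposited, with 1 column per library. In the paper's methods, low quality, duplicate and rRNA reads were removed and the rest aligned to mm10 and gene sequences with SOAP2, while the submitters' processing notes name Bowtie2. The library protocol digested the second cDNA strand, and whether counting used strand is not given in the sources used here. Of 27324 rows, 3963 held no value. Values were used as deposited, without a pseudocount.

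Fragments were recovered by taking 179 bp (D0) and 182 bp (D7) from the lengths of 456 single-exon genes of at least 600 bp. All low values used (49 at D0 and 56 at D7, each up to 20 fragments) then lay within 0.1 of a whole number. The length correction and the scale were chosen to make that share as large as possible, so it is not an independent check. Other genes used the length of the GENCODE M21 transcript that matched the accession in the table, or else the longest. Ratios had Clopper-Pearson and levels Poisson intervals, both exact at 95%. The recovery was tested on simulated data.

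No test was possible with 1 library per stage. The genes, lists and motifs were chosen with earlier results of these data known. Named genes were the 8, list members past 2.0-fold with FPKM of at least 1 in a library (up to 6 by level) or needed for a statement on their list, the 5 genes nearest to Hp and the nearest 1 to each other gene. Alternatives were pseudocounts of 0.1 and 1, division by the library median or upper quartile, TPM, rows summed per symbol, a filter at FPKM of 1 and a threshold of 4.0-fold. The tools were Python 3.11.15 with scipy 1.17.1, pandas 2.3.3, numpy 2.4.6 and, for plots, matplotlib 3.10.9.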

Additional observations from a re-analysis of the deposited data

How the results depend on the processing

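The 6 ratios of single acute phase genes were recomputed under 7 alternatives each, 42 values in all. None changed direction or came under 2.0-fold, 37 stayed within the counting interval, and 5 left it. Summing rows and the filter could not change these ratios and returned the same values. The library median, upper quartile and TPM shifted all ratios by a common amount, so that only the pseudocounts could affect genes differently. The ratios of Hpx, Lcn2, Cp and Serpina3n left the interval with a pseudocount of 1, and that of Cp also with the library median. The log2 ratio of Lcn2 ranged from 8.65 to 11.19 and that of Hpx from 1.82 to 3.24, in both cases lowest with a pseudocount of 1. The median log2 ratio of the 6 genes was 4.53 with a pseudocount of 1 and 4.79 as deposited. The number of other acute phase genes called higher went from 5 to 9 with a pseudocount of 0.1, which lets genes listed at 0 enter, and to 3 at a threshold of 4.0-fold. The number of signalling genes called higher went from 5 to 2 at a threshold of 4.0-fold. Orm1 and Orm2 have no ratio without a pseudocount and were not part of these 42 values. No paired analysis was possible because each stage has 1 library. Counting limits Lcn2, Hpx and Saa3 most, with about 3, 12 and 16 fragments at D0.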

Other observations

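Proteins whose plasma level drops in the acute phase were examined in a list of 7 genes. Trf, which encodes the iron carrier transferrin, had 4.52 FPKM in preadipocytes and 99.1 in adipocytes, or 21.9-fold (19.2 to 25.2) with its 95% counting interval. Rbp4, the carrier of retinol, was listed at 0 in preadipocytes and reached 55.8 FPKM in adipocytes, where about 998 fragments were counted. Ahsg and Apoa1 had at most 3 fragments in a library, and a difference was not detectable at this depth. Alb, Ttr and Serpina6 were listed at 0 in both libraries. Lists of hepatocyte and negative acute phase genes share Alb, Ahsg and Apoa1.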
